A study of Mus musculus with 20 samples.

Results

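Livers of obese mice given both rosuvastatin and geranylgeraniol (GGOH) were compared with livers of obese mice given vehicle, 5 against 5. These are 10 of the 20 libraries of the study, chosen by their titles, and every named gene with adequate counts was described, which was 12789 of 34933 named genes. All 20 mice were labelled wild type (WT) with diet-induced obesity (DIO), so the diet and the genotype were shared by treated and control mice. The other groups, also of 5 mice, received rosuvastatin alone or GGOH alone. The labels number the mice within a group and give no dose, duration, strain, sex, age or batch. No label states how the numbered samples were taken, and p-values measure the spread between these samples.

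Rosuvastatin is a statin, a drug that blocks the making of mevalonate. Mevalonate is the source of cholesterol and of the isoprenoids farnesyl and geranylgeranyl diphosphate, and liver cells that sense less sterol raise the genes of this pathway through the transcription factor SREBP-2. GGOH is an alcohol that cells can turn into geranylgeranyl diphosphate, which is attached to Rac and Rap proteins, so it can supply that branch without supplying cholesterol.

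Total estimated counts were 14060978 ± 1552486 (SD, n = 5) with vehicle and 15453338 ± 3932208 with the combination (exact permutation p = 0.556, two-sided over 252 assignments, whose smallest p is 0.00794). Combination mouse 3 had the fewest counts, 8548120. Mitochondrial transcripts took 11.9 to 15.9% of the counts of vehicle mice. In combination mice 1 to 5 they took 17.1, 27.9, 29.2, 13.4 and 9.12% (p = 0.262 by the same exact test). Mice 2 and 3 of the combination group therefore stood apart. Values without them are given beside each list whose majority turned, and beside each named gene under an unadjusted p of 0.05 that became more than 1.5 times smaller. The libraries also differed in how a gene's deviation from its mean followed its GC content. That correlation across genes was between 0.0682 and 0.218 in the combination mice and between -0.352 and 0.322 in the vehicle mice, with vehicle mice 1 and 3 positive and the other 3 negative. Genes are not independent replicates in these correlations, and the difference between groups had an exact permutation p = 0.135. The hepatocyte markers fitted the label of the tissue: Alb, the serum albumin gene, stood at 52731 ± 10403 CPM (counts scaled to a common library size with TMM factors, mean ± SD) with vehicle and 42457 ± 10828 with the combination. The defining markers of fat cells (Adipoq, Plin1, Lep, Retn) and all 6 skeletal muscle markers were too low to test, as were 6 of 7 markers of the exocrine pancreas.

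**Figure D1:**
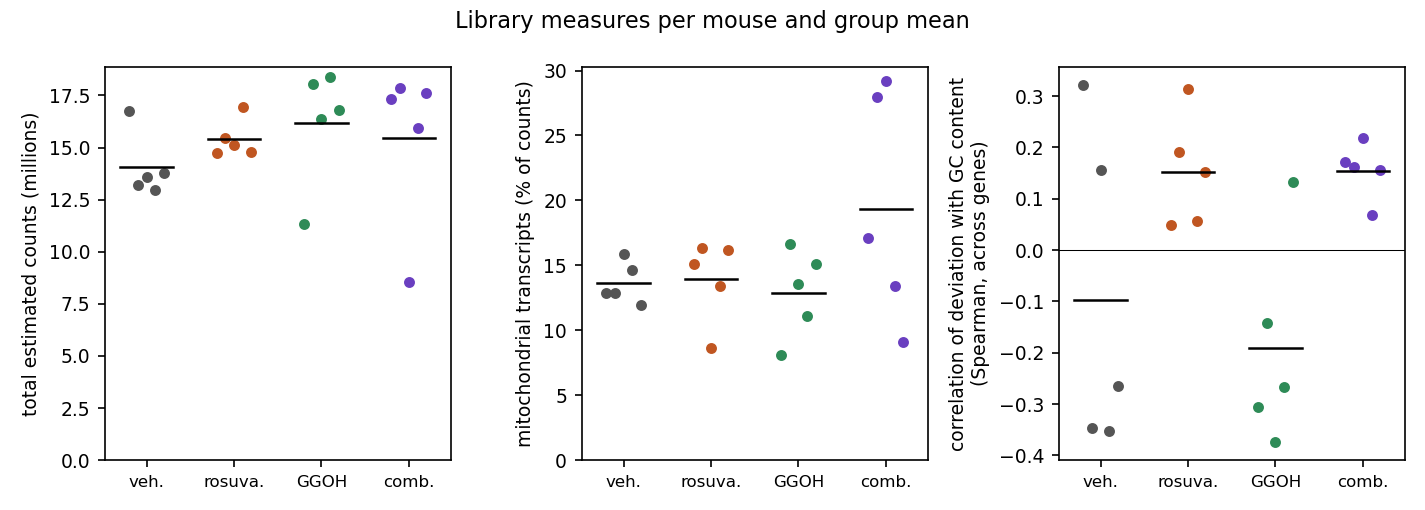
Total estimated counts, the percentage of counts from mitochondrial transcripts, and the Spearman correlation across genes between a gene's deviation and its GC content, for each mouse (points) of the 4 groups with the group mean (bar). Combination mice 2 and 3 lie at 27.9 and 29.2% mitochondrial transcripts, above every vehicle mouse, and combination mouse 3 has the lowest total.

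No gene separated the combination from vehicle at an adjusted p of 0.05. Of 12789 genes, 0 passed the edgeR quasi-likelihood test with Benjamini-Hochberg adjustment (0% called), and DESeq2 called 5. At an unadjusted p under 0.05 there were 704 genes, or 5.5% of those tested, where 639.5 would fall under it by chance alone if the genes did not differ. Of these, 344 were higher (2.69%) and 360 lower (2.81%), so 48.9% of them were higher. That split depended on scaling: 83.7% were higher with library size alone and 81% with limma on log2(TPM + 1), against 37.4% with offsets for GC content and length. It was 65.6% with no filter on low counts. Single mice mattered too, since without vehicle mouse 1 there were 1198 higher and 1006 lower genes, and without vehicle mouse 2 there were 221 and 134. Without combination mouse 2 or 3 there were 227 or 201 higher genes. The median log2 fold change over all genes was 0.01, and 50.8% of genes were positive. The spread within groups was wider in controls: the median SD of log2 CPM was 0.448 with vehicle and 0.339 with the combination, and 34.6% of genes had the larger SD in the combination.

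The gene nearest to the threshold was Cyp2b10, whose adjusted p was 0.0783, and the next smallest adjusted p was 0.817. Every other gene named below therefore had an adjusted p of 0.817 or more in that test, and its fold change is given as a description with its SE. Of the named genes, 64 were under an unadjusted p of 0.05, of which 29 were still under it without combination mice 2 and 3, 39 without vehicle mouse 2 and 38 with limma on log2(TPM + 1). Under it in each fit without 1 mouse of either group, and in that without combination mice 2 and 3, were 26. Groups that did not overlap, all 5 mice of one above all 5 of the other, were found for 33 genes that were higher (0.258%) and 64 that were lower (0.5%). Scaled as TPM instead, 21 higher and 8 lower genes did not overlap. On both scales 4 higher genes were separate (Cyp2b10, H2-K2, Josd2 and Kif24), as were 3 lower entries (Gm10171, Gm10233 and Rpl15-ps6). Kif24 and the 3 lower entries were named after their values were seen.

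**Figure D2:**
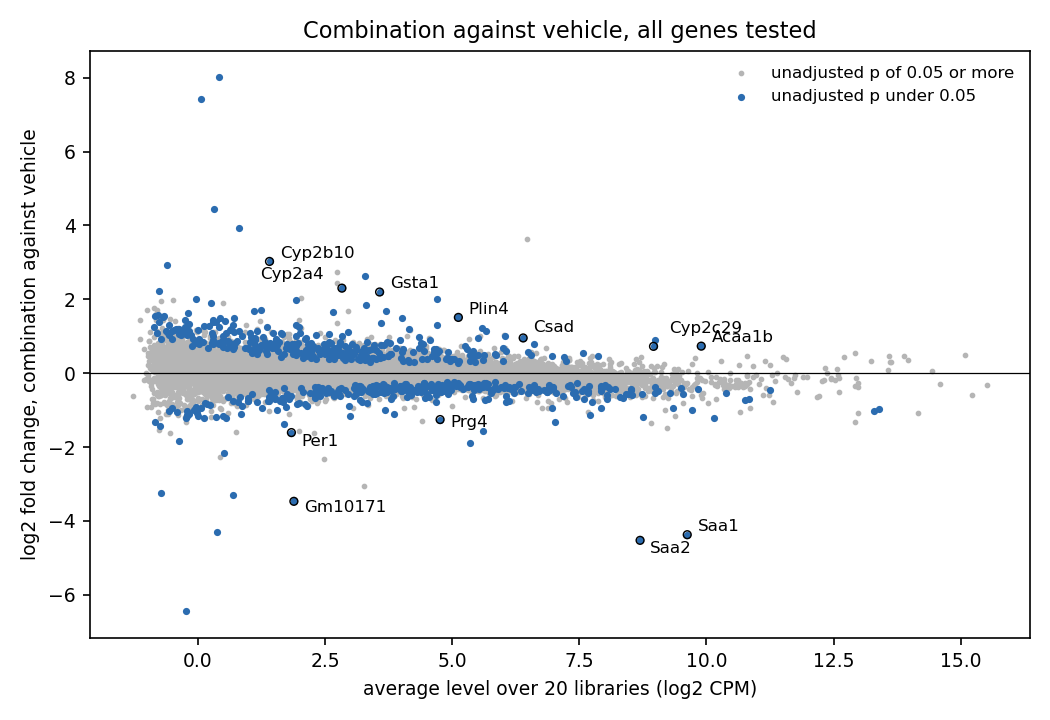
Each point is 1 of 12789 genes, with the average log2 CPM over 20 libraries on the x axis and the log2 fold change of the combination against vehicle on the y axis. Genes with an unadjusted p under 0.05 are blue (704), and Saa1 and Saa2 lie far below the other abundant genes while Cyp2b10 lies above genes of its level.

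Cyp2b10 is the classical target of the nuclear receptor CAR in mouse liver and encodes a P450 enzyme that oxidises drugs and steroids. Vehicle mice 1 to 5 had 0.811, 0.467, 1.24, 0.0940 and 0.955 CPM of Cyp2b10, and combination mice 1 to 5 had 4.03, 9.02, 5.15, 8.07 and 3.92. The lowest combination mouse was therefore above the highest vehicle mouse, and no mouse of one group reached the other. The log2 fold change was 3.03 ± 0.51 (SE) with an adjusted p of 0.0783 (edgeR). Without combination mice 2 and 3 the log2 fold change was 2.87, and over the fits that left out 1 mouse of either group it ran from 2.77 to 3.32. The gene lies at chr7:25897620-25926624 on the plus strand (GRCm38, GENCODE M21).

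Cyp2b10 has close relatives, and reads from near-identical copies can be shared among them by the counting. The following 60-base stretches are coding bases 283 to 342, counted from the A of the start codon in GENCODE M21 transcripts on GRCm38. They were picked as the stretch where Cyp2b10 differs most from Cyp2b9, so over the whole coding sequence the copies are more alike. For Cyp2b10 the reading frame with the length of that of Cyp2b9 was taken. Capitals mark the positions where the 3 genes are not all alike.
Cyp2b10: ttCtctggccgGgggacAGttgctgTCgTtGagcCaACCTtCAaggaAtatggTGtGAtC
Cyp2b9: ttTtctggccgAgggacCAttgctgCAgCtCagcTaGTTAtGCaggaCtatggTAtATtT
Cyp2b13: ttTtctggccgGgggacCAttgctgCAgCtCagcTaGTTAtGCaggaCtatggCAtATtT
In this stretch Cyp2b9 and Cyp2b13 each differ from Cyp2b10 at 20 of 60 bases. Over the whole coding sequence of 1476 bases, Cyp2b10 was 87.7% identical to Cyp2b9 and 88.8% to Cyp2b13, which were 92.7% identical to each other. Of the 31-base words of Cyp2b10 transcripts, 19.4% also occurred in transcripts of another gene. Cyp2b9 was far more abundant: per length it stood at 73.1 ± 63.6 TPM with vehicle and 73.3 ± 41.7 with the combination, while Cyp2b10 stood at 0.413 ± 0.322 and 3.46 ± 1.35 TPM. The log2 fold change of Cyp2b9 was 0.14 ± 0.61, with overlapping groups, and -0.46 without combination mice 2 and 3.

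The promoter of Cyp2b10 is shown because it is compared further on with those of the serum amyloid genes. The 250 bases before its RefSeq start (chr7:25897408-25897657, plus strand, GRCm38.p6) hold 1 match to TTGCNNAA, a pattern of the kind bound by C/EBP factors, which is in capitals.
Cyp2b10 promoter: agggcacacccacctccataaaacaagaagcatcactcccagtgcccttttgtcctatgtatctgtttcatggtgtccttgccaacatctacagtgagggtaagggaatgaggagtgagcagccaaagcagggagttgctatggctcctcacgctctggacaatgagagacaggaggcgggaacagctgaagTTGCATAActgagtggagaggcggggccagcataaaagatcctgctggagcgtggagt
The match begins 58 bases before the start. Searched on both strands, the pattern was present in 3142 of 32851 RefSeq promoters of this length (9.56%), so a match describes the sequence only.

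The list of P450 and conjugation genes tied to CAR and PXR did not share a direction. Besides Cyp2b10, 14 of 28 tested members had a positive log2 fold change and the median was 0.02, or 12 of 28 and -0.08 without combination mice 2 and 3. At an unadjusted p under 0.05, 3 of them were higher (Cyp2c29, Gsta1 and Cyp2a4) and 0 lower, against 2.69% and 2.81% of all genes. Cyp2c29 encodes an abundant P450 of the 2C family. Its level was 479, 287, 391, 319 and 478 CPM in vehicle mice 1 to 5 and 776, 478, 651, 746 and 581 in combination mice 1 to 5. The highest vehicle mice and the lowest combination mouse met at 478 to 479 CPM, and the other 4 combination mice were above all controls. On the log2 scale the difference was 0.73 ± 0.22. Cyp3a11, the main PXR-induced P450 of mouse liver, was at 0.38 ± 0.27 with overlapping groups.

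Gsta1 encodes a glutathione transferase that conjugates reactive aldehydes. Vehicle mice had 3.77, 4.20, 1.69, 5.55 and 7.35 CPM, and combination mice had 4.48, 38.1, 4.51, 15.6 and 38.9. Combination mice 2, 4 and 5 stood above every control, and mice 1 and 3 lay within the control range. This was a log2 fold change of 2.20 ± 0.68. Its neighbour in sequence Gm3776, with which it shares 80.3% of its 31-base words, was also highest in mice 2, 4 and 5 (2.24, 33.1, 5.69, 10.5 and 32.3 CPM, where controls had at most 5.25), so the counts of these copies cannot be told apart.

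Cyp2a4, a steroid-hydroxylating P450 that is normally higher in female liver, stood at 4.15, 2.15, 1.82, 4.04 and 2.77 CPM in controls and 2.37, 5.80, 11.9, 3.25 and 50.4 in combination mice. The log2 fold change of 2.30 ± 0.73 rested on combination mouse 5: without it the value was 0.92 and no longer under an unadjusted p of 0.05. Cyp2a5, with which Cyp2a4 shares 55.9% of its words, was at -0.49 ± 0.29. Ugt1a9, a glucuronosyltransferase, had 19.5, 25.3, 26.4, 48.7 and 28.9 CPM with vehicle and 27.9, 51.9, 89.5, 55.9 and 101 with the combination, with combination mouse 1 inside the control range (1.13 ± 0.34). It shares 67.8% of its words, mostly with Ugt1a10.

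The NRF2 target list holds antioxidant and glutathione genes. Of its 21 tested members 17 were positive, with a median of 0.18, and 3 were higher (Gsta1, Ephx1 and Gstm1) and 1 lower (Gclm) at an unadjusted p under 0.05, against 2.69% and 2.81% of all genes. Gstm1 stood at 681, 169, 463, 254 and 247 CPM with vehicle and 328, 1014, 802, 613 and 651 with the combination, where vehicle mouse 1 was above combination mice 1, 4 and 5. Its log2 fold change was 0.91 ± 0.37 and 0.57 without combination mice 2 and 3, where it was no longer under that p. Ephx1, the microsomal epoxide hydrolase, was at 0.46 ± 0.18. Gclm, the modifier subunit of the enzyme that starts glutathione synthesis, was at -0.26 ± 0.12, or -0.15 without combination mice 2 and 3.

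The aryl hydrocarbon receptor gene Ahr, which encodes the sensor of dioxin-like ligands, was lower with the combination. Vehicle mice had 22.1, 25.1, 24, 21.4 and 18.5 CPM and combination mice 13.6, 18.2, 15.2, 14 and 13.5. Every combination mouse was below every vehicle mouse, with 18.2 and 18.5 CPM as the closest pair. The fitted log2 difference was -0.58 ± 0.15 (adjusted p = 0.817, edgeR). On the TPM scale the groups overlapped. Its target Cyp1a1 was too low to test, and Tiparp, another target, was at -0.55 ± 0.23, or -0.38 without vehicle mouse 2. Of the 8 tested members of this list 2 were positive.

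Genes of the acute phase response were lower in mean with the combination. Most of the list encodes plasma proteins that hepatocytes make in response to IL-6 and IL-1. It also holds the signalling genes Il1r1, Il6ra, Stat3 and Socs3 and the membrane protein gene Steap4. All 28 members of the list had a negative log2 fold change, while 50.8% of all genes were positive, and the median was -0.58. At an unadjusted p under 0.05, 9 members were lower, against 2.81% of all genes. None had groups that did not overlap. The result leaned on vehicle mouse 2: without it 28 of 28 were still negative, the median was -0.37 and 3 members were under that p. Without combination mice 2 and 3, 27 of 28 were negative and 3 were under it. With each gene on the log2(TPM + 1) scale in limma, 23 were negative and 4 were under it.

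Saa1 and Saa2 encode serum amyloid A, the most strongly induced acute phase proteins of the mouse. Saa1 stood at 508, 9216, 93.1, 944 and 1456 CPM in vehicle mice 1 to 5 and at 135, 88.5, 52.5, 196 and 118 in combination mice 1 to 5. Vehicle mouse 2 was far above all others, and vehicle mouse 3 lay within the combination range. Saa2 had 367, 5034, 45.7, 361 and 553 CPM with vehicle and 66.5, 46.7, 30, 72.2 and 60.2 with the combination. The same mice were highest and lowest in each group as for Saa1. The log2 fold changes were -4.37 ± 1.02 for Saa1 and -4.53 ± 1.08 for Saa2, both with an adjusted p of 0.817 by edgeR, while DESeq2 gave 0.0112 for both. Without vehicle mouse 2 they were -2.64 and -2.56.

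The genes lie at chr7:46740497-46742980 (minus strand) and chr7:46751790-46754313 (plus strand), facing away from each other, and their coding sequences were 95.1% identical, so their counts are uncertain as to the copy. Their promoters are printed to show that likeness. Each is the 250 bases before the RefSeq start in GRCm38.p6, chr7:46742981-46743230 on the minus strand for Saa1 and chr7:46751583-46751832 on the plus strand for Saa2, with the match to TTGCNNAA in capitals.
Saa1 promoter: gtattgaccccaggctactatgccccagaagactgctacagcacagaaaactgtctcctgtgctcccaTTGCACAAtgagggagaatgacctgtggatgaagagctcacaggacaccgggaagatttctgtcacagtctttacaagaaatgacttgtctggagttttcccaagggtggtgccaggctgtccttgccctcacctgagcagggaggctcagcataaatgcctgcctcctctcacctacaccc
Saa2 promoter: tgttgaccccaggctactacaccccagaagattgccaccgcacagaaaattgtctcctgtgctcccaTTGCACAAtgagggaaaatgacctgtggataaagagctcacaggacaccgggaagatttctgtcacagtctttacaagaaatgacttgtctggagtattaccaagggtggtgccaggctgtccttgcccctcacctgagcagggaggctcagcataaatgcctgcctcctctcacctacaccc
The promoters were identical at 238 of 251 aligned positions (94.8%). The same 8 letters begin 182 bases before the start of Saa1 and 183 before that of Saa2, whereas in the Cyp2b10 promoter the pattern lies close to the start.

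Orm1 and Orm2 encode the acid glycoproteins. Orm1 stood at 600.0, 4084, 610.0, 1641 and 1676 CPM with vehicle and 998, 633, 435, 951 and 693 with the combination, and the log2 fold change was -1.21 ± 0.41. Vehicle mice 2, 4 and 5 were above all combination mice, while vehicle mice 1 and 3 were inside their range. Without vehicle mouse 2 the value was -0.58. Itih4, an inter-alpha-trypsin inhibitor chain of plasma, was high in a different set of mice, though vehicle mouse 2 was again among them. It had 1962, 1918, 826, 775 and 599 CPM in vehicle mice 1 to 5 and a narrow 628, 615, 605, 572 and 625 in the combination. Vehicle mice 1 and 2 were far the highest, and vehicle mouse 5 lay among the combination mice (-0.998 ± 0.32).

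Lcn2, a siderophore-binding protein released in inflammation, was at -1.89 ± 0.83, and Apcs, the serum amyloid P gene, was at -1.13 ± 0.50. Both lost an unadjusted p under 0.05 without vehicle mouse 2, at -1.02 and -0.33. Serpina3m, Saa4 and Orm2 were the other 3 members under it, at -0.56 ± 0.26, -0.41 ± 0.19 and -1.58 ± 0.56. They lost it without vehicle mouse 2 as well, at -0.42, -0.345 and -0.78. Apcs was at -0.75 and Serpina3m at -0.27 without combination mice 2 and 3. Haptoglobin (Hp) was at -0.60 ± 0.35.

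Neutrophil and Kupffer cell markers overlapped between the groups in their summed levels, and lymphocyte markers are given further on. Only 4 of 7 neutrophil markers could be tested, since Ly6g, Cxcr2 and Mmp8 were too low. The summed level of those 4 was 3.10 to 30.9 CPM with vehicle and 6.01 to 18.4 with the combination. That of 10 Kupffer cell markers was 267.5 to 482.6 and 256.2 to 424.1. Of the 20 tested inflammation genes 12 were positive with a median of 0.05, and 0 were under an unadjusted p of 0.05 in either direction by edgeR. Ccr2, the receptor that brings monocytes to the liver, was at -0.60 ± 0.32. Its ligand Ccl2 was at 0.78 ± 0.44. The part of these cells in the acute phase values was not tested, and in whole liver RNA fewer cells of a type and less RNA per cell cannot be told apart.

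**Figure D3:**
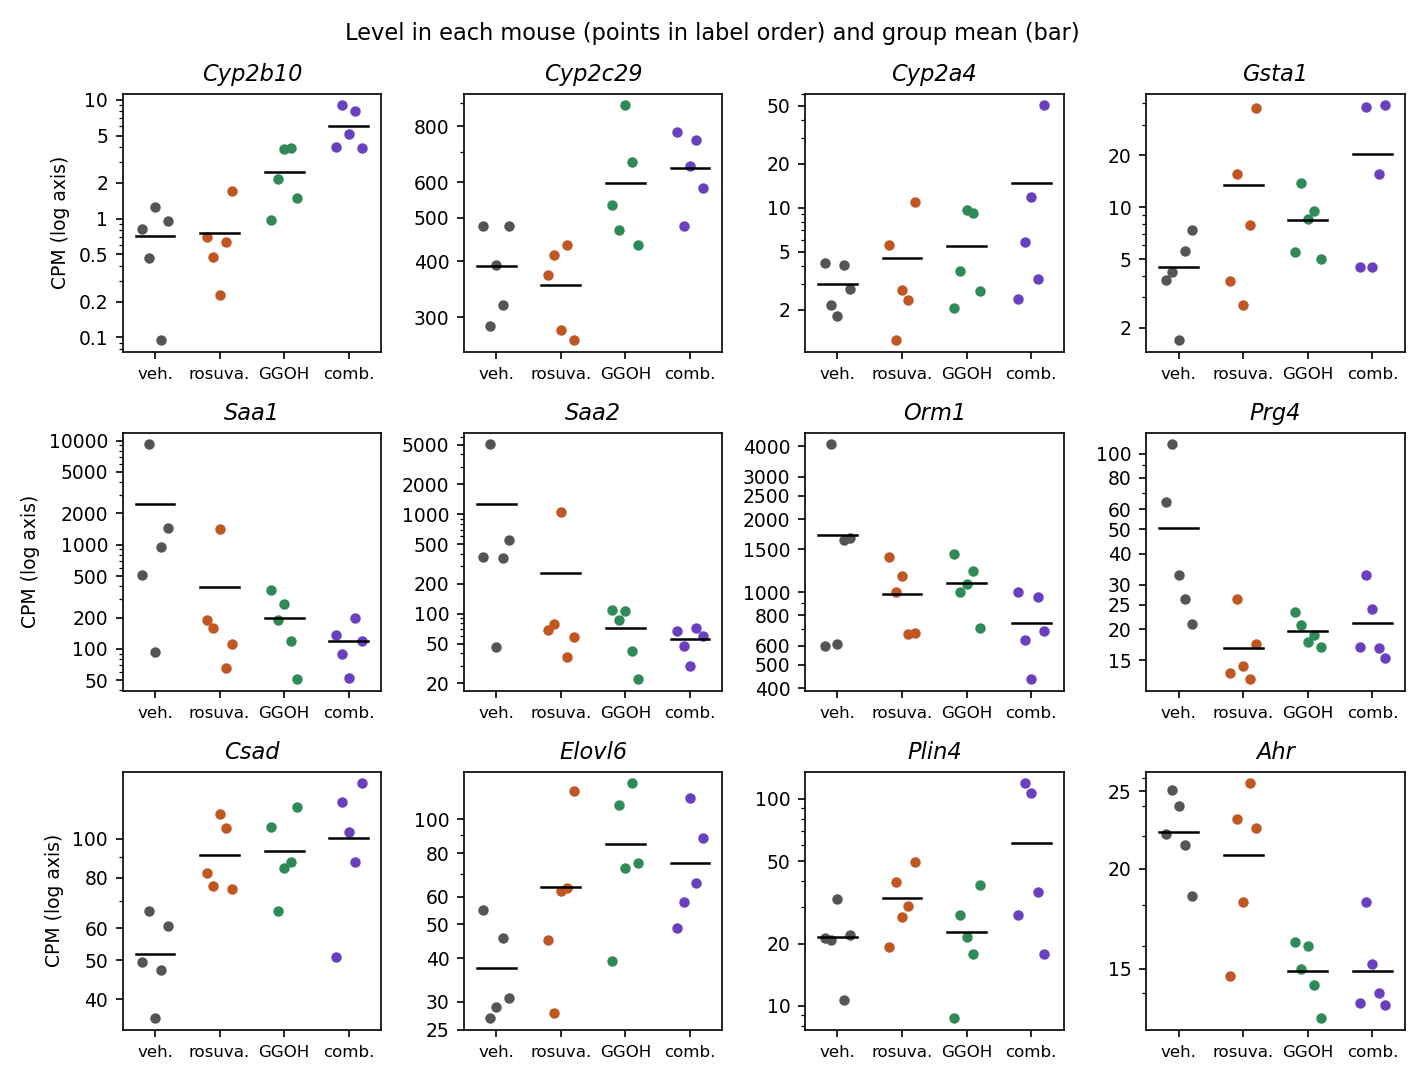
CPM on log axes of 12 genes in each mouse of the vehicle, rosuvastatin, GGOH and combination groups (points in label order, bar at the mean). Cyp2b10 and Ahr do not overlap between vehicle and combination, whereas Saa1, Saa2 and Orm1 do, with vehicle mouse 2 highest.

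The pathway that rosuvastatin inhibits was examined next. Of the 20 cholesterol synthesis genes 18 were positive, at a median of 0.32 on the log2 scale, and 0 were under an unadjusted p of 0.05. Without vehicle mouse 3, 16 were positive with a median of 0.18, and without combination mice 2 and 3, 20 with a median of 0.385. Without vehicle mouse 2, 19 were positive, the median was 0.53 and 2 were under that p. Mvd and Fdps, which make isopentenyl and farnesyl diphosphate, had the largest values, 0.74 ± 0.55 and 0.68 ± 0.50. Fdps stood at 72.7, 63.9, 15.5, 27.4 and 16.7 CPM in vehicle mice 1 to 5 and 76.8, 25.3, 106, 70.2 and 38 in combination mice 1 to 5. Vehicle mice 1 and 2 and combination mice 1, 3 and 4 were high, and the ranges overlapped over most of their length.

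Hmgcs1, an early enzyme of the pathway, was at 0.17 ± 0.42, Sqle, the squalene epoxidase, at 0.18 ± 0.61, Lss, which closes the sterol rings, at 0.42 ± 0.44, and Idi1, the isopentenyl isomerase, at 0.38 ± 0.54. Their SEs were as large as or larger than the change in each of Hmgcs1, Sqle, Lss and Idi1. Tm7sf2, a sterol reductase, had the smallest p of the list (0.47 ± 0.30).

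Genes of sterol uptake and its control had a median of 0.07, with 12 of 16 positive and 0 under an unadjusted p of 0.05. The majority turned without combination mice 2 and 3, with 5 of 16 positive and a median of -0.04, and with offsets for GC content and length 7 of 16 were positive. Insig1, the sterol-sensing retention factor, was at 0.04 ± 0.32, and Srebf2, which encodes SREBP-2, at 0.13 ± 0.25. Insig1 changed sign without 1 mouse or another, and Srebf2 also without combination mice 2 and 3 and with offsets for GC content and length. Cyp7a1, the rate-limiting enzyme of bile acid synthesis, was at 0.05 ± 0.27. Hmgcs1, Sqle and Cyp7a1 also changed sign without 1 mouse or another. The bile acid list had 6 of 18 positive and a median of -0.14. At an unadjusted p under 0.05 by edgeR 2 members were lower, against 2.81% of all genes. These were Akr1d1, a reductase of the sterol ring (-0.60 ± 0.25), and Baat, which joins bile acids to taurine (-0.56 ± 0.26). In both, vehicle mouse 1 was low and vehicle mice 2, 4 and 5 were high, and those are also libraries that differ in GC correlation. With offsets for GC content and length Akr1d1 was at -0.64 and Baat at -0.54. Without combination mice 2 and 3 they were at -0.41 and -0.35 and no longer under that p, and 10 of the 18 bile acid genes were positive with a median of 0.01. Both also lost it without vehicle mouse 2, at -0.49 and -0.37.

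The isoprenoid branch, which GGOH feeds, had 6 of 16 members positive and a median of -0.07, although 12 of 16 were positive with limma on log2(TPM + 1) and 10 of 16 with library size alone. Ggps1, the synthase of geranylgeranyl diphosphate, stood at 8.20, 22, 14.1, 18.9 and 20.1 CPM with vehicle and 16.9, 15.5, 11.3, 13.8 and 13.6 with the combination. The combination mice lay inside the control range, and the log2 fold change was -0.22 ± 0.20. Pdss2, a subunit of the enzyme that makes the coenzyme Q tail, was lower (-0.41 ± 0.17). It was the 1 member under an unadjusted p of 0.05, against 2.81% of all genes lower. It was at -0.24 without combination mice 2 and 3 and -0.27 on the log2(TPM + 1) scale, and under that p in neither. Its partner Pdss1 was at -0.45 ± 0.27. Rap1b, a geranylgeranylated GTPase, was at -0.44 ± 0.29, and Rac2 at 0.56 ± 0.34. The YAP and TAZ list holds targets, which respond to tension in the cytoskeleton, and the regulators Yap1, Wwtr1 and Tead1. Of its 9 tested members 5 were positive and 0 were under that p, with Ccn2 at -0.67 ± 0.45 and Ccn1 at -0.26 ± 0.27. Only 1 of the 9 was positive without combination mice 2 and 3 (median -0.17), where Ccn1 was at -0.61 and under that p.

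Gem encodes a small GTP-binding protein that acts on calcium channels and the cytoskeleton. It stood at 3.77, 7.57, 6.32, 4.89 and 4.77 CPM with vehicle and 3.26, 2.52, 2.79, 3.57 and 3.07 with the combination. All combination mice were below all vehicle mice in CPM, though not in TPM, and the log2 fold change was -0.84 ± 0.20 (adjusted p = 0.817, edgeR). Arhgap42, a GTPase-activating protein, was also separate, at 40, 40.5, 44.1, 41 and 41.2 CPM against 30.9, 31.4, 30.8, 32.4 and 34.6, a difference of -0.37 ± 0.12, but on the log2(TPM + 1) scale it was at 0.02.

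Fatty acid synthesis genes were mostly higher in mean. Of 17 tested members 15 were positive, the median was 0.42, and 5 were higher and 0 lower at an unadjusted p under 0.05, against 2.69% and 2.81% of all genes. Elovl6, which lengthens palmitate, stood at 55, 26.9, 29, 45.7 and 30.8 CPM with vehicle and 48.8, 58.1, 115, 65.7 and 88.4 with the combination. Combination mice 2 to 5 were above all controls, and mouse 1 was below vehicle mouse 1. In the fit the log2 fold change was 1.00 ± 0.35 and 0.87 without combination mice 2 and 3. Me1, the malic enzyme that supplies NADPH, was at 0.54 ± 0.20.

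Me1 became 0.47 without those mice and was no longer under that p. The other 3 members under it moved further without combination mice 2 and 3, the mice with the most mitochondrial transcripts. Fasn, the fatty acid synthase, had 51.6, 26.9, 31.7, 25.8 and 15.1 CPM with vehicle and 38.4, 75.6, 97.4, 40.2 and 41.8 with the combination. Only combination mice 2 and 3 exceeded the highest control, and without them the log2 fold change of 0.95 ± 0.40 became 0.43. Mlxipl, which encodes the glucose sensor ChREBP, stood at 108, 235, 260.0, 64.8 and 74 CPM in combination mice 1 to 5 and at 74.3 to 119 in controls, and its 0.79 ± 0.34 became -0.04 without those 2 mice. Acacb, an acetyl-CoA carboxylase, went from 0.85 ± 0.38 to 0.14. Over the list, 13 of 17 were positive without them, the median was 0.18 and 1 member was under that p. Scd1, the main desaturase, was at 0.44 ± 0.39.

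Plin4, a coat protein of lipid droplets, showed the same 2 mice. It stood at 21.3, 20.7, 32.7, 10.7 and 21.9 CPM with vehicle and 27.6, 119, 107, 35.3 and 17.7 with the combination. Its fold change on the log2 scale was 1.51 ± 0.46 with all mice and 0.34 without mice 2 and 3. Dgat1, which makes triglyceride, was at 0.37 ± 0.14, and Cidec, which enlarges droplets, at 0.73 ± 0.36. In the triglyceride and droplet list 15 of 21 were positive and the median was 0.07. Plin4 and Dgat1 were the 2 members under an unadjusted p of 0.05, both higher, against 2.69% of all genes.

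Acaa1b, a thiolase of peroxisomal fatty acid oxidation, stood at 905, 456, 847, 566 and 1007 CPM with vehicle and 855, 1233, 1559, 1293 and 1340.0 with the combination. Combination mice 2 to 5 were above all controls, and mouse 1 was within their range. On the log2 scale the difference was 0.73 ± 0.21 and 0.64 without mice 2 and 3, although 40% of its words also occur in Acaa1a. Cyp4a32, an omega-hydroxylase that follows PPAR-alpha, was at 0.57 ± 0.21, and Cyp4a10, with which it shares 49.2% of its words, at 0.40 ± 0.23. The list of fatty acid oxidation and PPAR-alpha genes as a whole had 15 of 26 positive and a median of 0.01, with 10 of 26 positive under offsets for GC content and length and 11 of 26 without vehicle mouse 4. Fgf21, a fasting hormone made by liver under PPAR-alpha, was at 0.59 ± 0.42.

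Genes coded by the mitochondrial genome are themselves counted in the mitochondrial share of each library, so as a set they follow it by construction. Of 13 genes 12 were positive with a median of 0.35, and without combination mice 2 and 3 only 2 were positive and the median was -0.12. mt-Nd6, the only one of these read from the light strand, had 5.44, 8.60, 3.45, 5.45 and 6.21 CPM with vehicle and 10.9, 15.2, 64.8, 8.39 and 5.33 with the combination. Mouse 3 was far above the rest, and without it the log2 fold change of 1.83 ± 0.59 was 0.79 (0.51 without mice 2 and 3). The nuclear genes of the respiratory chain had 7 of 26 positive and a median of -0.14, with 0 under that p. Without combination mice 2 and 3, 14 of the 26 were positive, as were 14 with limma on log2(TPM + 1) and 19 with library size alone.

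**Figure D4:**
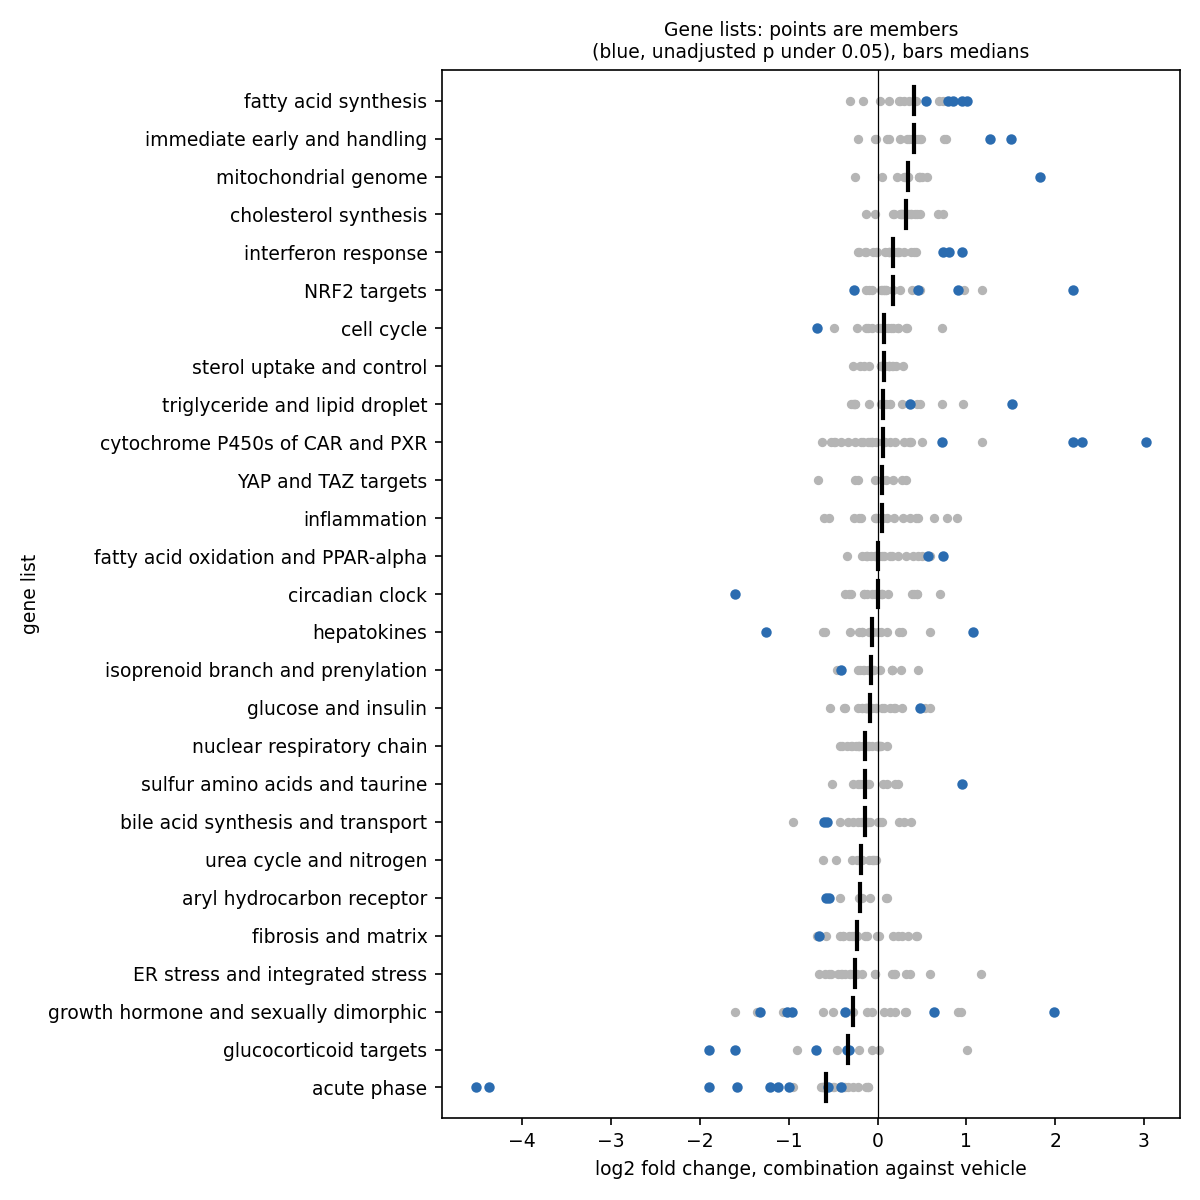
The log2 fold change of the combination against vehicle (x axis) for every tested member (points) of 27 gene lists (y axis), ordered by their medians (bars). Members with an unadjusted p under 0.05 are blue, and the acute phase list, with a median of -0.58 and 9 such members, lies lowest.

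Csad makes hypotaurine, the step that commits cysteine to taurine, and had the smallest p among named genes that were higher, after Cyp2b10. It stood at 49.5, 66.1, 35.9, 47.3 and 60.9 CPM in vehicle mice 1 to 5 and 50.8, 123, 104, 87.6 and 137 in combination mice 1 to 5. Combination mice 2 to 5 were above all controls, and mouse 1 lay among them. This was a log2 fold change of 0.95 ± 0.23 (adjusted p = 0.817, edgeR), and between 0.81 and 1.12 over the fits without 1 mouse of either group. It lies at chr15:102176999-102204724. Of the other 15 tested members of the sulfur amino acid list 4 were positive and the median was -0.15, against 9 of 15 and 0.02 without combination mice 2 and 3. With Csad counted, 5 of 16 were positive, and 9 of 16 with limma on log2(TPM + 1) or with library size alone. Bhmt, the betaine methyltransferase, was at -0.51 ± 0.28.

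Prg4 encodes lubricin, a secreted glycoprotein that liver makes in obesity. Vehicle mice had 64.2, 109, 32.7, 26.4 and 21 CPM and combination mice 17, 32.8, 24.1, 16.8 and 15.3. Vehicle mice 1 and 2 were above all combination mice, and the others overlapped with them. The fitted log2 difference was -1.26 ± 0.35, or -0.77 without vehicle mouse 2. Gdf15, a hormone of cellular stress, stood at 4.67, 3.27, 3.26, 4.61 and 3.15 CPM with vehicle and 3.52, 5.52, 5.36, 13.1 and 12.3 with the combination, where mouse 1 lay within the control range (1.07 ± 0.35). These were the 2 hepatokines under an unadjusted p of 0.05 of 18 tested, against 5.5% of all genes. Of the 18, 7 were positive with all mice and 11 without combination mice 2 and 3.

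The glucocorticoid list, which holds targets and the receptor gene Nr3c1, had 2 of 12 positive and a median of -0.34. At an unadjusted p under 0.05, 5 members were lower, against 2.81% of all genes. On the log2(TPM + 1) scale 1 member was under it (4 of 12 positive, median -0.12), with library size alone 2, and 3 without vehicle mouse 2 or without combination mice 2 and 3. Tsc22d3, which encodes the anti-inflammatory protein GILZ, stood at 38.1, 56.4, 56.3, 51.8 and 51.8 CPM with vehicle and 45.3, 33, 28.4, 26.5 and 24.7 with the combination. Combination mouse 1 overlapped with the controls through vehicle mouse 1 (-0.69 ± 0.20). Nr3c1, the glucocorticoid receptor, was separate in CPM, at 47.2, 47.1, 54, 43.4 and 46.8 against 31.3, 41, 38.4, 39.8 and 37.2. Its log2 fold change was -0.35 ± 0.12, but the groups overlapped in TPM, and on the log2(TPM + 1) scale it was at -0.16. Sgk1, a kinase of salt transport, was at -0.33 ± 0.14, and the other 2 were Per1 and Lcn2, which is also in the acute phase list.

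Per1 is a clock gene that also responds to glucocorticoids. It stood at 14.2, 2.34, 9.31, 1.60 and 2.77 CPM with vehicle and 1.34, 3.44, 3.00, 0.939 and 1.46 with the combination, so vehicle mice 1 and 3 were high and the other mice lay close together. The log2 fold change of -1.61 ± 0.56 became -0.996 without vehicle mouse 1. Over the 18 clock genes 9 were positive and the median was 0.01. Without combination mice 2 and 3, 4 of 18 were positive with a median of -0.15. Without vehicle mouse 1, 13 of 18 were, with a median of 0.23. With all mice Per1 was the only one under an unadjusted p of 0.05, against 2.81% of all genes lower. The times of sampling are not in the labels.

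Immediate early genes, which respond to handling within minutes, had 16 of 19 positive and a median of 0.41. Nr4a1, an orphan nuclear receptor, stood at 0.954, 0.280, 0.391, 1.03 and 0.286 CPM with vehicle and 1.28, 2.02, 1.07, 1.56 and 1.31 with the combination (1.26 ± 0.45). Its groups did not overlap in CPM but did in TPM. Egr1 had 26.3, 8.41, 8.86, 7.24 and 2.67 CPM and 12.1, 7.49, 6.87, 54 and 72.5. Combination mice 4 and 5 carried its difference of 1.50 ± 0.67, which was 0.91 without mouse 5.

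Genes under growth hormone and those that differ by sex had 9 of 23 positive and a median of -0.27. At an unadjusted p under 0.05, 2 were higher and 4 lower, against 2.69% and 2.81% of all genes. Without combination mice 2 and 3, 1 was higher and 1 lower under it. Cish, a feedback inhibitor induced by STAT5, stood at 1.10, 1.12, 1.69, 1.41 and 0.955 CPM with vehicle and 3.58, 4.92, 13, 1.19 and 3.02 with the combination, highest in mouse 3 (1.99 ± 0.65, 1.06 without mice 2 and 3). Cux2, a repressor that is normally higher in female liver, was at 0.64 ± 0.24. The major urinary protein genes Mup21, Mup20 and Mup3 were lower in mean, at -1.32 ± 0.48, -0.96 ± 0.41 and -1.01 ± 0.47. Without combination mice 2 and 3 they were at -1.12, -0.77 and -0.82, and none was under an unadjusted p of 0.05. Mup20 stood at 4359, 17018, 6299, 20433 and 16040.0 CPM with vehicle and 5811, 7124, 3399, 10454 and 6076 with the combination. Vehicle mice 1 and 3 lay within the combination range and vehicle mice 2, 4 and 5 above it. The Mup genes are near-identical copies (64.5% of the words of Mup20 occur elsewhere), and the copy a read came from is uncertain.

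H2-K2 and Josd2 were the other named genes that were higher without overlap on both scales. H2-K2, a gene of the class I antigen family, stood at 2.34, 2.99, 1.50, 2.35 and 2.10 CPM with vehicle and 4.35, 5.91, 5.04, 4.88 and 3.77 with the combination (1.09 ± 0.30). Josd2, a deubiquitinase, stood at 8.25, 9.25, 11.1, 7.61 and 11.6 and 13.6, 19.2, 23.4, 12.7 and 12.5 CPM (0.76 ± 0.21, and 0.46 without combination mice 2 and 3). Kif24, a kinesin, was low in both groups, 0.470 ± 0.271 and 0.929 ± 0.230 CPM (mean ± SD). The identical entries Gm10171 and Gm10233, which share all of their words, had 2.96, 2.80, 7.23, 14.3 and 4.58 CPM with vehicle and 1.47, 0, 0.751, 0.313 and 0.402 with the combination (-3.47 ± 0.79). Rpl15-ps6, a ribosomal pseudogene, was at -1.83 ± 0.80.

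Among abundant genes that were lower without overlap, Mug1 encodes murinoglobulin, a plasma protease inhibitor. It stood at 1688, 1715, 1904, 1803 and 1732 CPM in vehicle mice 1 to 5 and 1272, 1301, 1009, 1177 and 1280.0 in combination mice 1 to 5, and both groups were tight. In the fit the log2 fold change was -0.55 ± 0.22, and 42% of its words occur in other genes, mostly Mug2. Scarb2, a lysosomal membrane protein, was at 136, 166, 135, 138 and 135 and 108, 101, 111, 114 and 113 CPM (-0.37 ± 0.11). On the TPM scale the groups overlapped for Mug1 and Scarb2.

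Of the remaining lists, urea cycle genes had 0 of 13 positive with a median of -0.19 and 0 under an unadjusted p of 0.05, and Cps1, which starts the cycle, was at -0.61 ± 0.33. Without combination mice 2 and 3, 7 of the 13 were positive. Interferon response genes had 16 of 23 positive and a median of 0.18. Under that p 3 were higher, against 2.69% of all genes, namely Oas1g, Oas2 and Oasl2 (0.74 ± 0.25, 0.96 ± 0.46 and 0.80 ± 0.39). Of the 31-base words of Oas1g 55.1% occur in other genes, mostly Oas1a. Without combination mice 2 and 3 Oas2 was at -0.02 and Oasl2 at 0.48, and of the 3 only Oas1g was still under it. ER stress genes had 7 of 22 positive and a median of -0.25, against 12 of 22 and 0.08 without those mice. In the glucose and insulin list 9 of 24 were positive (13 without those mice, without vehicle mouse 1, or with limma on log2(TPM + 1)). G6pc, the last step of glucose release, was the 1 member under that p (0.48 ± 0.21), against 2.69% of all genes higher. Fibrosis genes had 7 of 21 positive (12 without vehicle mouse 1), with Col3a1, a collagen of scars, at -0.66 ± 0.31, and cell cycle genes 12 of 18 (6 without combination mouse 5 and 7 without vehicle mouse 5), with Ccne2, a cyclin of DNA replication, at -0.68 ± 0.29 (0.02 on the log2(TPM + 1) scale).

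Markers of lymphocytes were higher in mean and those of bile duct cells lower. All 7 B and plasma cell markers were positive (median 0.51), with summed levels of 16.7 to 31.2 CPM with vehicle and 18.8 to 51.3 with the combination. Ighm, the heavy chain of IgM, was the 1 member under an unadjusted p of 0.05 (0.78 ± 0.26), against 2.69% of all genes higher. All 9 T and NK cell markers were positive (median 0.29) at summed levels of 4.53 to 12.9 and 5.36 to 15 CPM. Cd3e did not overlap in CPM, at levels below 1 CPM, but did in TPM. The 5 tested cholangiocyte markers were all negative (median -0.58), at 41.0 to 72.0 and 19.3 to 45.3 CPM, and Epcam was at -0.95 ± 0.66. By comparison 1 of 8 hepatocyte markers was positive (median -0.14).

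The groups given 1 compound share the vehicle mice with this comparison, so their values are given side by side without a measure of likeness. Mean Cyp2b10 was 0.713 ± 0.443 CPM (± SD, n = 5) in vehicle mice, 0.752 ± 0.569 in rosuvastatin mice, 2.48 ± 1.36 in GGOH mice and 6.04 ± 2.36 in combination mice. Against rosuvastatin alone the combination was at 2.98 ± 0.50 (adjusted p = 0.0714, edgeR), and against GGOH alone at 1.27 ± 0.45 (adjusted p = 0.348). The departure from the sum of both single effects was 1.22 ± 0.71 (adjusted p = 0.999). Against vehicle, Cyp2c29 was at -0.15 ± 0.22 with rosuvastatin, 0.62 ± 0.22 with GGOH and 0.73 ± 0.22 with both. Ahr followed the same order, at -0.10 ± 0.15, -0.58 ± 0.15 and -0.58 ± 0.15.

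For the sterol genes the order was another. The median of the cholesterol synthesis list was 1.11 with rosuvastatin, -0.26 with GGOH and 0.32 with both, and the median departure from the sum was -0.52. Fdps was at 1.64 ± 0.51, -0.13 ± 0.50 and 0.68 ± 0.50. The combination against rosuvastatin was -0.96 ± 0.50 for Fdps (adjusted p = 1). Saa1 was lower in mean than vehicle in every treated group, at -2.64 ± 0.94 with rosuvastatin, -3.61 ± 0.99 with GGOH and -4.37 ± 1.02 with both. Csad was higher in each, at 0.81 ± 0.23, 0.84 ± 0.23 and 0.95 ± 0.23, and Mug1 lower in each, at -0.55 ± 0.22, -0.58 ± 0.22 and -0.55 ± 0.22.

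Prg4 had the smallest p for departure from additivity among the named genes. Its mean was 50.6 ± 36.5 CPM (± SD, n = 5) in vehicle mice, 16.8 ± 5.64 in rosuvastatin mice, 19.6 ± 2.61 in GGOH mice and 21.2 ± 7.32 in combination mice, so the 3 treated means lay between 16.8 and 21.2. The departure was 1.70 ± 0.49 on the log2 scale (adjusted p = 0.999). Over all genes 369 (2.89%) had an unadjusted p under 0.05 for that departure and 0 passed adjustment by edgeR. Between the combination and rosuvastatin there were 216 genes under it (1.69%), and between the combination and GGOH 1788 (14%), with 0 past adjustment by edgeR in either. H2-K2 and Josd2 were among the latter, at 1.22 ± 0.29 and 0.75 ± 0.20 against GGOH. The GGOH libraries also had the lowest mean GC correlation of the 4 groups, and its part in that count was not tested.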

How the data were processed

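Poly(A) RNA of 20 mouse livers was sequenced, 5 each with vehicle, rosuvastatin, GGOH or both. The submitters' processing notes name kallisto 0.44.0 and bcl2fastq 2.19, the build GRCm38/mm10, and DESeq2, whose version and role are not given in the sources used here. The authors deposited 2 tables, 1 of estimated counts and 1 of TPM values, the latter scaled by them for length and depth. The annotation release is not given in the sources used here. Both tables hold 34934 entries. The 1 entry with no gene name took 0.00801 to 0.0157% of a library's counts and was left out. Estimated counts were rounded to whole numbers, and 0 other columns per sample were set aside.

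The quasi-likelihood test of edgeR 4.0.16 (R 4.3.3) was used with TMM factors, the default filter on low counts (12789 genes kept) and 1 model of all 20 libraries, so that the 4 groups share 1 estimate of the spread with 16 residual degrees of freedom. P-values were adjusted by Benjamini-Hochberg with a threshold of 0.05. The value after ± beside a log2 fold change is its SE. CPM are counts scaled to a common library size with TMM factors, and groups not overlapping were counted on them. Total counts per library ran from 8548120 to 18373913, and lower counts give less precision. Values per library were compared by exact permutation, two-sided. The fit was tested on simulated data.

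Named genes were the 12 higher and 12 lower with the smallest p (average log2 CPM of at least 1), the 6 and 6 with the widest gap between groups (at least 2), up to 4 members of each of 28 lists, and 19 focal genes. Another 22 genes were picked with their values in view. Some genes and 1 of the lists are not reported here. The members and lists were chosen with earlier results of these data known. 14 cell marker lists were used. Alternatives were RLE factors, DESeq2 1.42.0, no filter or a stricter one (at least 1 CPM in 5 libraries), only the 10 libraries, a replicate block, limma 3.58.1 on log2(TPM + 1) and log2(TPM + 0.1), quality weights, mitochondrial transcripts removed, and leaving out each library. Added after seeing the data were leaving out combination mice 2 and 3, offsets for GC content and length, and library size alone. Positions are from GENCODE M21 on GRCm38, promoters from RefSeq (GRCm38.p6), and shared 31-base words were counted over all M21 transcripts.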

Additional observations from a re-analysis of the deposited data

Results flagged for a closer look

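Within a group of 5 mice, 4 values lay far from the others by their gap to the nearest mouse relative to the range, out of 86 groups of values examined, where 4.3 would be expected at 1 in 20 by chance. Vehicle mouse 1 had the highest total of its group, 16776626 estimated counts. Combination mouse 3 had the lowest of its group, 8548120. The mean log2 CPM of the triglyceride and lipid droplet list was 6.109 in vehicle mouse 4, apart from the other vehicle mice. The mean log2 CPM of the monocyte markers was 3.413 in combination mouse 5, apart from the other combination mice. No explanation was tested for these 4 values.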

How the results depend on the processing

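The count of 0 genes at an adjusted p under 0.05 against vehicle became 5 with DESeq2 (Cyp2b10, Saa1, Saa2, Gm10171 and Gm10233). It became 1, Cyp2b10, with no filter on low counts, with limma on log2(TPM + 1) or log2(TPM + 0.1), and without rosuvastatin mouse 3 or 5. Leaving out each library in turn gave 0 to 1. Against rosuvastatin the count became 1 with DESeq2 and 1 with limma on log2(TPM + 1). The 344 higher genes at an unadjusted p under 0.05 became 657 with no filter, 225 with only the 10 libraries, 1313 with quality weights and 217 without combination mice 2 and 3. Leaving out each library gave 201 (combination mouse 3) to 1198 (vehicle mouse 1), with 221 without vehicle mouse 2, 527 without vehicle mouse 3 and 227 without combination mouse 2. The 360 lower genes became 212 with only the 10 libraries, 66 and 68 with limma on TPM, 1514 with quality weights and 70 with library size alone. Leaving out each library gave 134 (vehicle mouse 2) to 1006 (vehicle mouse 1), with 188 without combination mouse 3. The 33 higher genes without overlap became 21 by TPM, 65 with no filter and 19 with GC and length offsets, and the 64 lower became 8 by TPM and 9 with library size alone. The causes were not tested, beyond the fewer or more genes and samples that some settings hold.

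The median of all genes moved to 0.107 with library size alone and 0.142 on log2(TPM + 0.1), and differences on those scales are relative to these shifts. Higher genes made up 82.2% of those under an unadjusted p of 0.05 on the latter, 62.3% without vehicle mouse 2, 60.3% without rosuvastatin mouse 5 and 59.4% without combination mouse 4.

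The deviations of same-numbered mice had correlations of -0.325, -0.201, 0.507, 0.2 and 0.2 for numbers 1 to 5, none best with its own number. These values cannot decide whether the numbers pair the mice, because differences between whole libraries also enter them, and the labels do not state it. With the number as a replicate block 0 genes passed adjustment, with 295 higher and 303 lower at an unadjusted p under 0.05 over 20 libraries. Over the 10 libraries there were 268 and 122, of which 68.7% were higher.

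Of 95 named genes, 10 changed sign somewhere. Arhgap42 was at 0.0166 and 0.0251 and Ccne2 at 0.0193 and 0.0537 on the log2(TPM + 1) and log2(TPM + 0.1) scales. Without combination mice 2 and 3, Mlxipl was at -0.0352, Oas2 at -0.0185, Srebf2 at -0.118 and Cyp2b9 at -0.455. With GC and length offsets Srebf2 was at -0.077. Leaving out 1 library at a time gave -0.0228 to 0.608 for Hmgcs1, -0.0729 to 0.555 for Sqle, -0.145 to 0.423 for Insig1, -0.0258 to 0.38 for Srebf2, -0.049 to 0.244 for Cyp7a1 and -0.148 to 0.403 for Cyp2b9. Depth limits genes near 1 CPM most, where a library of 8548120 counts holds few reads of a gene.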
